A study of Mus musculus with 9 samples.

Results

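The genes described here are the collagens, the laminin chains, the nidogens, perlecan (*Hspg2*), agrin (*Agrn*), the fibulins, the fibrillins, fibronectin (*Fn1*) and elastin (*Eln*). They were chosen by symbol among the protein-coding genes, without *Col16a1*, and number 66 of the 32035 genes that have a transcript in the data. By their known assembly they were split into 23 basement membrane genes, 11 fibrillar collagens and 32 other collagens and fibre glycoproteins. Their RNA was measured by RNAseq of poly(A) RNA from whole testes of male mice 15 weeks old, 3 testes in each of 3 groups. The groups were C57Bl6/N wild type (WT), *Kpna6* ΔIBB/ΔIBB and *Kpna6*-/- mice, and both mutant lines had been backcrossed to C57Bl6/N. *Kpna6* encodes importin α7, an adaptor that carries proteins into the nucleus. In *Kpna6* ΔIBB/ΔIBB mice exon 2 is deleted and only a shortened protein without the importin β binding domain can be made, in germ cells as well as in Sertoli cells. *Kpna6*-/- mice carry a gene trap in intron 1, and by the paper's account a germ cell transcript that starts elsewhere still gives the whole protein, so that Sertoli cells but not spermatids lack it. The replicates are testes numbered in the labels, and nothing states that the number marks a shared litter, day or batch.

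A basement membrane is a thin sheet of matrix on which epithelia rest. Laminins, each an α, a β and a γ chain, polymerise on the cell surface, type IV collagen forms a second network, and nidogens and perlecan join both. In the testis this sheet lies under the Sertoli cells and spermatogonia of each seminiferous tubule and is laid down together with the peritubular myoid cells around it. Fibrillar collagens form the ropes of the tunica albuginea, the vessel walls and the interstitium, and beaded filaments of type VI collagen, fibulins and elastin lie among them. In bulk tissue, a change in the number of cells of a type and a change in the RNA of each such cell cannot be told apart.

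The 6 chains of type IV collagen are encoded by 3 pairs of genes that point away from each other, and the stretch between the start sites of each pair is shown because the members of a pair did not always move together. The sequences are from RefSeq (GRCm38.p6), read 5′ to 3′, and capitals mark the GC box, GGGCGG, searched on either strand. *Col4a1* and *Col4a2* start so close that their first 22 bases overlap, at chr8:11312805-11312826 on the strand of *Col4a2*. Between *Col4a4* and the most upstream start of *Col4a3* lie 71 bases, at chr1:82586850-82586920 on the strand of *Col4a4*. The start sites of *Col4a5* and *Col4a6* lie 1342 bases apart on the X chromosome, so the 250 bases upstream of each are given, chrX:141475169-141475418 for *Col4a5* (plus strand) and chrX:141474077-141474326 for *Col4a6* (minus strand). The 250 bases upstream of *Lamb2*, the laminin β chain with the smallest P-value of all members, are at chr9:108479612-108479861 (plus strand).
Col4a1/Col4a2 overlap: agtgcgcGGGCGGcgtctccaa
Col4a3/Col4a4 gap: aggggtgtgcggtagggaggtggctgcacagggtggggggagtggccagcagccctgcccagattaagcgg
Col4a5 upstream: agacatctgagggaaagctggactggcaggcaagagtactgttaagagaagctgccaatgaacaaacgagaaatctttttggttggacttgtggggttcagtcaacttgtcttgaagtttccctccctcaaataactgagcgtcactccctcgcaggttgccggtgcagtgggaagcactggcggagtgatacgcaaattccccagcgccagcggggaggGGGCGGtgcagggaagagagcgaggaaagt
Col4a6 upstream: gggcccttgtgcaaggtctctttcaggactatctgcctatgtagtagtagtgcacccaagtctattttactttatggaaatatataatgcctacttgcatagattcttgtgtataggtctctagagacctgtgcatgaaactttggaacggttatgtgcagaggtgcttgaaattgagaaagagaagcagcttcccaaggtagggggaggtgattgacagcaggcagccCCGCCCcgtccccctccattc
Lamb2 upstream: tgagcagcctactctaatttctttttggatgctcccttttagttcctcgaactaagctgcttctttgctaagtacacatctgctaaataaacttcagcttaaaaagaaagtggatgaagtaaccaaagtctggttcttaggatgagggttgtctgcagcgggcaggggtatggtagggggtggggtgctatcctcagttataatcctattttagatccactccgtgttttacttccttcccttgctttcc

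The GC box occurs once between *Col4a1* and *Col4a2*, once upstream of *Col4a5* and once upstream of *Col4a6*, and these letters are in neither the *Col4a3*/*Col4a4* gap nor the *Lamb2* stretch. In RefSeq promoter windows of 300 bases (250 before and 50 after the start), 33 of 54 windows of 47 members held a GC box (61.1%), against 35.7% of all 32851 windows. CCAAT was in 29.6% of the members' windows and in 37.4% of all windows, and TATAAA in 9.3% and 13.6%. The 3 motifs were searched on both strands, and these counts are a description.

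The libraries held between 24859751 and 31484692 estimated counts on genes, of which the members took between 0.137% and 0.193%. No pair of replicates differed by as little as sampling noise, since chi-square per degree of freedom over genes was 3.48 or more. *Kpna6* itself had 201, 325 and 334 normalized CPM (CPM, counts scaled to a common library total after TMM normalization of all 9 libraries together) in WT, 81.2, 85.3 and 81.8 in *Kpna6* ΔIBB/ΔIBB and 247, 249 and 262 in *Kpna6*-/- testes. Its log2 fold change against WT was -1.79 in *Kpna6* ΔIBB/ΔIBB (adjusted p = 0.00615) and -0.18 in *Kpna6*-/- testes (adjusted p = 0.791, edgeR quasi-likelihood test). The third *Kpna6* ΔIBB/ΔIBB testis stood apart. A list of 10 markers of epididymal epithelium, the duct next to the testis, summed to 115.1 CPM there and to between 5.06 and 11.9 CPM in the 8 other libraries. *Crisp1*, *Adam7* and *Spink8* carried this sum, while *Lcn5* and *Lcn6* were at 0 in every group. Results for members that rest on this testis are given with and without it. Genes of the marker lists and of the other fixed lists are given with all testes only.

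Measured per transcript length (TPM), the summed level of the 66 members was 766.7 ± 33.2 (SD, n = 3) in WT testes. It was 767.1 ± 52.3 in the *Kpna6* ΔIBB/ΔIBB group and 750.7 ± 14.7 in the *Kpna6*-/- group, and the 3 ranges overlapped. A large part of that sum was *Col22a1*, a fibril-associated collagen, with 334.1 TPM or 43.6% of the members' total in WT. *Col20a1* (46.9 TPM), *Col26a1* (43.8 TPM) and *Lamb3* (35.0 TPM) came next. These levels came mostly from short transcripts. Of the *Col22a1* level, 217 TPM belonged to a transcript of 659 nt and 104 TPM to a noncoding transcript of 1210 nt, and 13.7 TPM to the whole mRNA of 8809 nt. In the same way 30.9 of the 35.0 TPM of *Lamb3* belonged to a noncoding transcript of 258 nt, and 30.6 of the 46.9 TPM of *Col20a1* to a transcript of 633 nt. Members whose most abundant transcript was a long coding one were lower per length. *Col2a1*, the cartilage collagen, had 19.1 TPM, of which 96.3% was a coding transcript of 4862 nt. *Lamb2* had 17.0 TPM, of which 56.1% was its longest coding transcript of 5629 nt. *Col3a1* (14.3 TPM) and *Col1a2* (12.8 TPM), fibrillar collagens of soft tissue, followed. The lowest, *Col10a1* and *Col9a2*, had means under 0.2 TPM in every group and were not tested.

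**Figure D1:**
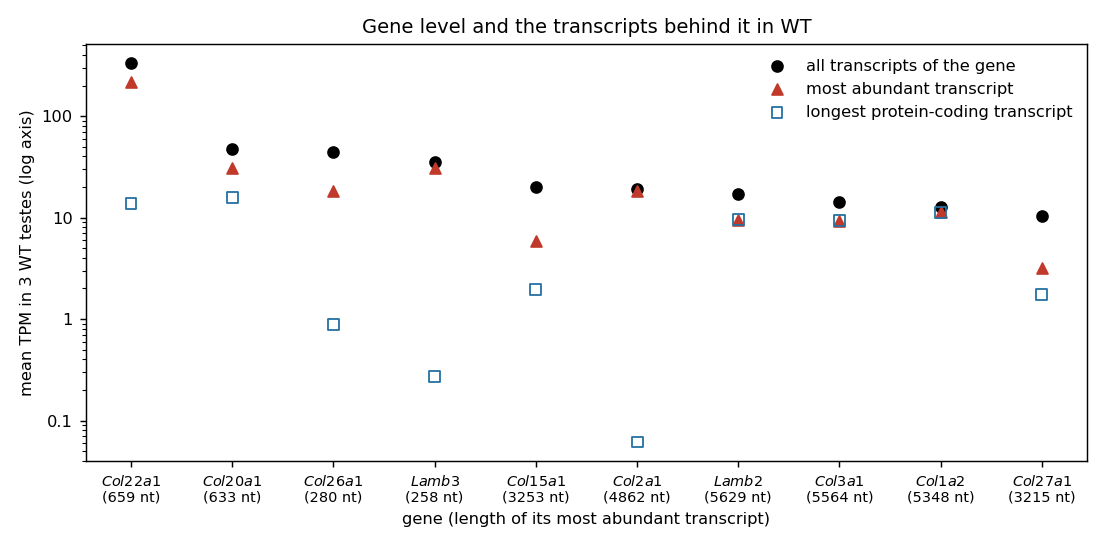
Mean TPM in 3 WT testes (log axis) of 10 members, as the sum over the gene (circles), the most abundant transcript (triangles, with its length under the name) and the longest protein-coding transcript (squares). *Col22a1* is highest as a gene at 334.1 TPM, while its longest coding transcript is at 13.7 TPM. For *Col2a1* the most abundant transcript is coding, at 4862 nt, and a longer coding model is at 0.0613 TPM.

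The first comparison asked which matrix genes differ from WT in *Kpna6* ΔIBB/ΔIBB males, which are infertile. Basement membrane genes were mostly higher and few fibrillar collagens passed the test. Of the 64 members tested against WT, 19 rose, 11 fell and 34 did not pass an adjusted p of 0.05 (edgeR quasi-likelihood test, Benjamini-Hochberg adjustment over all genes tested). Among all 18797 genes tested, 17.9% rose and 19.1% fell. The median log2 fold change was 0.249 over the members and 0.009 over all genes. The groups of 3 did not overlap in 26 members that were higher and in 11 that were lower in *Kpna6* ΔIBB/ΔIBB testes, where 24.8% and 25.2% of all genes did so. Of the 23 basement membrane genes, 15 rose, 2 fell and 6 did not pass, with a median of 0.373. The 11 fibrillar collagens gave 1 higher and 1 lower call, and their median was 0.390. Without the third *Kpna6* ΔIBB/ΔIBB testis these were 2 higher and 2 lower calls and a median of 0.252, and with counts rebuilt from TPM the median was 0.130. Of the 30 other members tested, 3 rose and 8 fell, with a median of 0.078.

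The balance of higher and lower calls depended on the scaling. With library size only, which moved the median of all genes to 0.107, 25 members rose and 8 fell. With counts rebuilt from TPM the split was 20 and 6, with limma on log2(TPM + 1) 22 and 4, and with the longest coding transcript of each gene 16 and 4 (the last chosen after the data had been seen). Sertoli cell markers were higher in *Kpna6* ΔIBB/ΔIBB testes, as most basement membrane genes were. All 12 of them rose, with a median log2 fold change of 0.591, and their summed level was 1227 to 1332 CPM in WT, 1804 to 2127 CPM with the ΔIBB allele and 1470 to 1559 CPM in *Kpna6*-/- testes. The paper's quantitative PCR, scaled to *Gapdh*, found no significant change in *Wt1*, *Rhox5*, *Cldn11* or clusterin (*Clu*), which are on this list. The paper also counted fewer Sertoli cells in adults of both mutant lines. Of the 6 round spermatid markers all fell, with a median of -0.337, and 6 of 8 elongating spermatid markers fell. Among 9 peritubular myoid markers 6 rose and *Actg2* fell, with a median of 0.413. Their summed level overlapped between the groups (394.3 to 415.5 and 398.3 to 424.0 CPM). Of 8 interstitial fibroblast markers 5 rose, with a median of 0.424, and their sum was 140.6 to 169.8 CPM in WT against 182.0 to 197.3 CPM. Of 8 macrophage markers 4 rose, with a median of 0.459, and their sum was 72.8 to 90.6 CPM against 103.5 to 115.1 CPM. Neither sum overlapped with WT. Other somatic markers did not rise as a list. Of 10 endothelial markers 1 rose and 2 fell, with a median of 0.028, and 0 of 8 Leydig cell markers were called, with a median of 0.01. The part of these cell types in the members' changes was not tested.

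**Figure D2:**
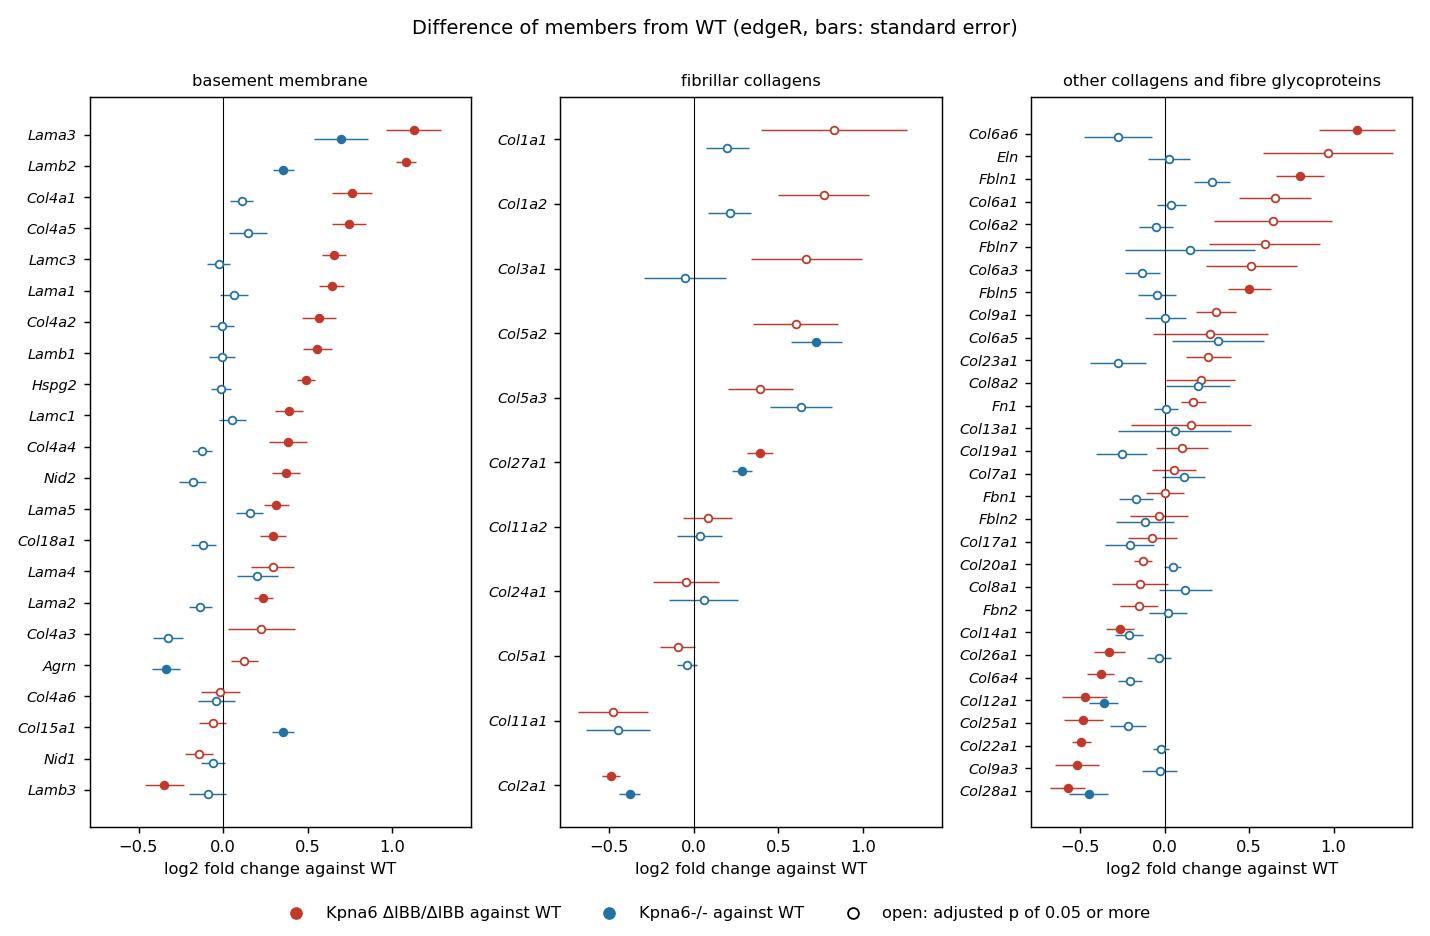
Log2 fold change against WT (x axis) of the tested members, 1 left out, in *Kpna6* ΔIBB/ΔIBB (red) and *Kpna6*-/- testes (blue), in 3 panels, with bars for the standard error and filled points for an adjusted p below 0.05. In the basement membrane panel 15 red points are filled to the right of 0 and 1 to the left, in the fibrillar panel 1 and 1, and in the third panel 3 and 8.

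Laminins were changed chain by chain. *Lamb2* (chromosome 9, 108479736 to 108490530) encodes the β2 chain. It had 44.4, 45.1 and 42.2 normalized CPM in WT, 100.8, 87.4 and 90.2 in *Kpna6* ΔIBB/ΔIBB and 57.4, 51.5 and 60.1 in *Kpna6*-/- testes. The *Kpna6* ΔIBB/ΔIBB testes were highest, the WT testes lowest, and the 3 groups did not overlap. Against WT it rose 2.12-fold in *Kpna6* ΔIBB/ΔIBB testes (log2 fold change 1.08, SE 0.06, adjusted p = 1.55e-07). Over all alternatives tried the value lay between 1.00 and 1.18 and remained past the threshold. Its full-length transcript alone went from 9.52 to 22.1 TPM and also rose (log2 fold change 1.11, adjusted p = 0.0014 over transcripts).

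Of the 5 laminin α chains, 4 rose in *Kpna6* ΔIBB/ΔIBB testes. *Lama1*, the α1 chain of epithelial laminin, had 20.3, 21.0 and 19.6 CPM in WT against 34.6, 31.5 and 28.7 in *Kpna6* ΔIBB/ΔIBB and 23.8, 21.2 and 18.7 in *Kpna6*-/- testes. Only the *Kpna6* ΔIBB/ΔIBB values lay clear of the other groups, and the rise over WT was 1.56-fold (log2 fold change 0.64, SE 0.08, adjusted p = 1.87e-05). *Lama3*, the α3 chain of epidermal laminin, was low, with 3.98, 3.52 and 2.66 CPM in WT, 8.73, 6.76 and 6.77 in *Kpna6* ΔIBB/ΔIBB and 6.12, 4.71 and 5.73 in *Kpna6*-/- testes. The 3 groups did not overlap, with WT lowest, *Kpna6*-/- between and *Kpna6* ΔIBB/ΔIBB highest. The rise in *Kpna6* ΔIBB/ΔIBB testes was 1.13 on the log2 scale (SE 0.16, adjusted p = 9.32e-05). With its longest coding transcript only it was 0.49 (adjusted p = 0.20). *Lama2* (log2 fold change 0.24) and *Lama5* (0.32) rose less, and *Lama4*, the α4 chain of vessels, did not pass (0.29, adjusted p = 0.0835) although its groups did not overlap.

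*Lamc3*, encoding the γ3 chain, had 38.2, 32.1 and 37.6 CPM in WT, 57.9, 52.9 and 58.9 in *Kpna6* ΔIBB/ΔIBB and 36.7, 34.4 and 35.1 in *Kpna6*-/- testes. *Kpna6*-/- values lay within the WT range, while *Kpna6* ΔIBB/ΔIBB values were above both and rose 1.58-fold (log2 fold change 0.66, SE 0.07, adjusted p = 9.41e-06). With TPM-derived counts the value was 0.54 with an adjusted p of 0.054. *Lamc1*, the common γ1 chain, rose by 0.39, and *Lamb1*, the common β1 chain, by 0.56 on the log2 scale (adjusted p = 0.00234 and 0.000146). *Lamb3*, the β3 chain of epidermal laminin, had 13.1, 10.4 and 12.5 CPM in WT, 8.69, 10.5 and 8.87 in *Kpna6* ΔIBB/ΔIBB and 10.0, 10.8 and 13.0 in *Kpna6*-/- testes. These groups overlapped. *Lamb3* fell by 0.35 (SE 0.11, adjusted p = 0.027), but 4 of the 6 fits that left out a testis did not call it (WT replicate 1, adjusted p = 0.0956; WT replicate 3, 0.083; *Kpna6* ΔIBB/ΔIBB replicate 1, 0.0979; replicate 3, 0.0733). Nor was it called with library size only (0.102), TPM-derived counts (0.145), limma at pseudocounts of 1 and 0.1 (0.3 and 0.303) or the longest coding transcript (0.311).

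Of the proteins that tie the networks together, *Hspg2* (perlecan, a heparan sulfate proteoglycan) rose and *Agrn* did not pass. *Hspg2* had 50.1, 50.1 and 48.8 CPM in WT, 71.8, 65.4 and 71.7 in *Kpna6* ΔIBB/ΔIBB and 53.4, 49.1 and 45.4 in *Kpna6*-/- testes. The *Kpna6* ΔIBB/ΔIBB testes were above all others, with a 1.41-fold rise over WT (log2 fold change 0.49, SE 0.05, adjusted p = 9.70e-06). *Hspg2* lies 7.8 Mb from *Kpna6* on chromosome 4, as do 5 other members at distances of 3.3 to 82.3 Mb, and the part of DNA linked to the targeted locus was not tested. *Nid2* rose by 0.37 (adjusted p = 0.00256), though 8.4% of its 31-base words also occur in transcripts of *Rtraf*. *Nid1* did not pass (-0.14, adjusted p = 0.207). *Col18a1*, which yields endostatin, rose by 0.30 (adjusted p = 0.00804).

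**Figure D3:**
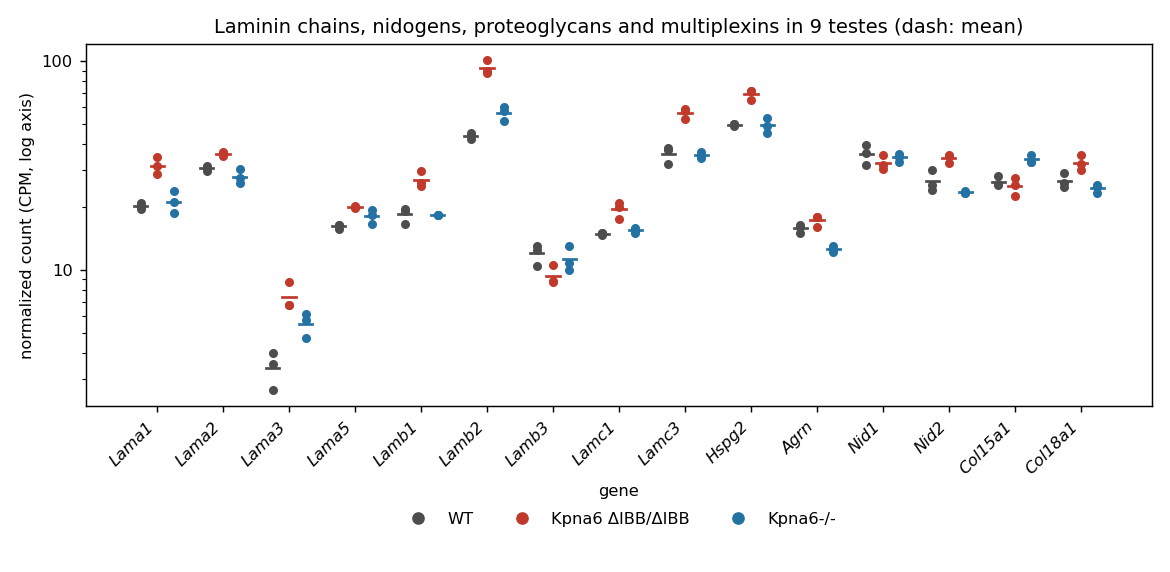
Normalized counts (CPM, log axis) of 15 basement membrane members in 3 WT (grey), 3 *Kpna6* ΔIBB/ΔIBB (red) and 3 *Kpna6*-/- testes (blue), with a dash at each mean. *Lamb2* separates the groups without overlap, from 44.4, 45.1 and 42.2 in WT to 100.8, 87.4 and 90.2 in *Kpna6* ΔIBB/ΔIBB testes, while *Nid1* overlaps.

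Type IV collagen was the other network. Of its 6 chains, 4 rose in *Kpna6* ΔIBB/ΔIBB testes, and all 6 were low per length in WT (2.01 to 6.94 TPM). *Col4a1*, the α1 chain, had 31.4, 29.2 and 33.3 CPM in WT, 50.4, 45.2 and 63.0 in *Kpna6* ΔIBB/ΔIBB and 32.02, 32.3 and 37.0 in *Kpna6*-/- testes. *Col4a2*, the α2 chain of the same trimer, had 29.8, 26.2 and 30.1 CPM against 41.0, 36.9 and 49.2, and 28.4, 26.9 and 30.5 in *Kpna6*-/- testes. In both genes the third *Kpna6* ΔIBB/ΔIBB testis was highest and no *Kpna6* ΔIBB/ΔIBB testis overlapped with the other groups. *Col4a1* rose 1.70-fold (log2 fold change 0.76, SE 0.12, adjusted p = 0.00158), or by 0.62 without that testis (adjusted p = 1.39e-05). *Col4a2* rose 1.48-fold (log2 fold change 0.57, SE 0.10, adjusted p = 0.00138), or by 0.45 without it (adjusted p = 0.000437).

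*Col4a5* had 9.72, 10.0 and 9.57 CPM in WT, 16.4, 14.4 and 18.2 in *Kpna6* ΔIBB/ΔIBB and 9.78, 9.77 and 13.0 in *Kpna6*-/- testes. It rose 1.68-fold in *Kpna6* ΔIBB/ΔIBB testes (log2 fold change 0.75, SE 0.10, adjusted p = 4.95e-05), with no overlap. Its neighbour *Col4a6*, whose product joins it in the same trimer, had 8.13, 8.23 and 8.01 CPM in WT, 9.07, 7.01 and 7.99 in *Kpna6* ΔIBB/ΔIBB and 8.84, 7.79 and 7.10 in *Kpna6*-/- testes. Here all groups overlapped and the test was not passed (log2 fold change -0.02, SE 0.11, adjusted p = 0.929). The sign of this value changed under library size scaling, with coding transcripts and with TPM values.

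*Col4a4*, a chain of the network known from the kidney filter, had 41.5, 42.4 and 39.3 CPM in WT, 50.5, 45.9 and 63.9 in *Kpna6* ΔIBB/ΔIBB and 38.9, 35.1 and 39.1 in *Kpna6*-/- testes. It rose by 0.39 (SE 0.11, adjusted p = 0.030) but did not pass with WT replicate 1, 2 or 3 left out (adjusted p = 0.12, 0.0905 and 0.147) or without *Kpna6* ΔIBB/ΔIBB replicate 1 (0.0578), and it rose by 0.24 without the third *Kpna6* ΔIBB/ΔIBB testis (adjusted p = 0.0111). *Col4a3* had 21.2, 24.4 and 20.4 CPM in WT, 23.6, 20.2 and 33.0 in *Kpna6* ΔIBB/ΔIBB and 17.7, 15.9 and 19.2 in *Kpna6*-/- testes. It did not pass (0.23, SE 0.20, adjusted p = 0.428), and without the third *Kpna6* ΔIBB/ΔIBB testis its value was 0.00 (adjusted p = 0.996).

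Ratios of TPM within a pair cancel the scaling between libraries. The log2 ratio of *Col4a5* to *Col4a6* was 0.13, 0.03 and 0.03 in WT, 0.71, 1.08 and 1.19 in *Kpna6* ΔIBB/ΔIBB and -0.01, 0.24 and 0.84 in *Kpna6*-/- testes. The *Kpna6* ΔIBB/ΔIBB ratios were all above the WT ratios, while one *Kpna6*-/- ratio reached into the *Kpna6* ΔIBB/ΔIBB range. For *Col4a1* to *Col4a2* the means were 0.07 ± 0.13 (SD, n = 3) in WT and 0.40 ± 0.09 in *Kpna6* ΔIBB/ΔIBB testes, again without overlap. For *Col4a3* to *Col4a4* they were -0.50 ± 0.35 and -0.77 ± 0.08 and overlapped. Two-sided exact permutation tests gave p = 0.1 for each of the first 2 pairs, the smallest value that 3 against 3 allows, and p = 0.3 for the third. With these group sizes no ratio could have passed 0.05.

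**Figure D4:**
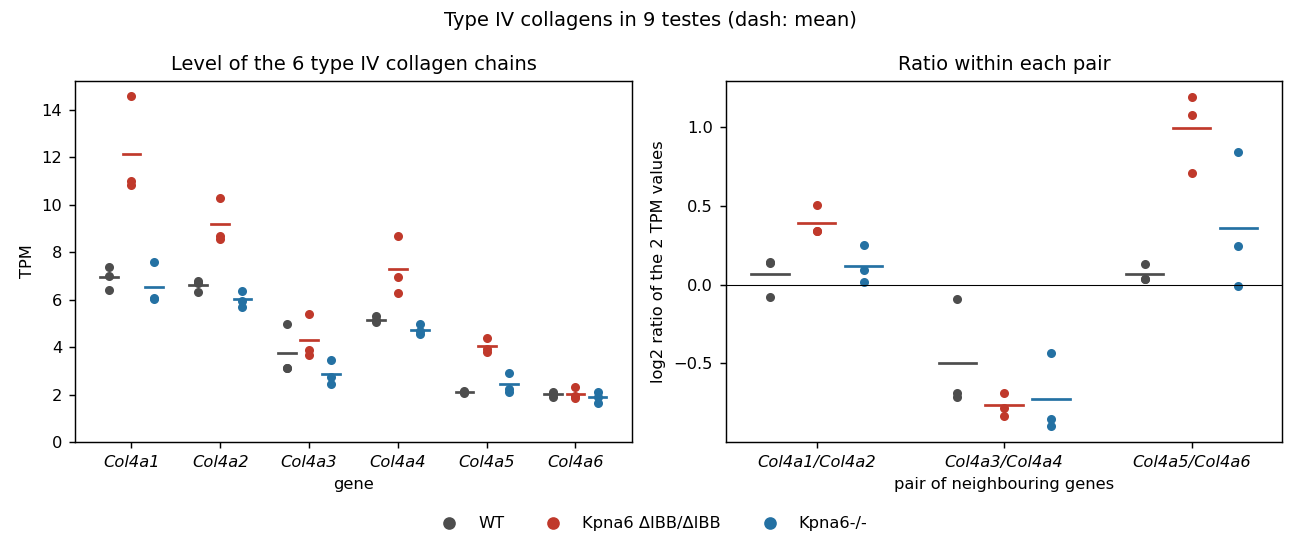
Left, TPM of the 6 type IV collagen chains, and right, the log2 ratio of the 2 TPM values within each neighbouring pair, in 3 testes per group (dash: mean). *Col4a5* exceeds *Col4a6* in *Kpna6* ΔIBB/ΔIBB testes by 0.71, 1.08 and 1.19 on the log2 scale, against 0.13, 0.03 and 0.03 in WT.

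Among the fibrillar collagens, *Col2a1* fell and *Col27a1* rose in *Kpna6* ΔIBB/ΔIBB testes. The main collagens of soft tissue did not pass in the edgeR fit used throughout. *Col2a1* (chromosome 15, 97975602 to 98004695) had 74.3, 70.2 and 68.4 CPM in WT, 49.3, 49.4 and 52.6 in *Kpna6* ΔIBB/ΔIBB and 57.5, 48.8 and 57.6 in *Kpna6*-/- testes. Every mutant testis was below every WT testis, while the mutant lines overlapped with each other. It fell by 0.49 on the log2 scale (SE 0.05, adjusted p = 9.70e-06), and the value lay between -0.52 and -0.33 over the alternatives. *Col27a1*, a long fibrillar collagen of cartilage, had 33.5, 33.1 and 36.7 CPM in WT, 50.01, 39.9 and 45.3 in *Kpna6* ΔIBB/ΔIBB and 42.0, 41.3 and 42.9 in *Kpna6*-/- testes. All mutant values were above WT, and the rise was 1.31-fold (log2 fold change 0.39, SE 0.08, adjusted p = 0.00168). Of its transcripts, the full-length coding one rose by 1.21 (adjusted p = 0.0033), while the gene level from TPM-derived counts did not pass (0.13, adjusted p = 0.306).

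The chains of collagens I and III, *Col6a1*, *Col6a2*, *Col6a3* and elastin were spread widely within the *Kpna6* ΔIBB/ΔIBB group and were highest in a single testis. *Col1a2* had 44.8, 46.7 and 55.9 CPM in WT, 76.3, 61.6 and 111.9 in *Kpna6* ΔIBB/ΔIBB and 55.9, 49.9 and 65.3 in *Kpna6*-/- testes. *Col3a1* had 39.0, 40.3 and 47.5 CPM in WT, 59.9, 45.1 and 95.3 in *Kpna6* ΔIBB/ΔIBB and 36.4, 31.9 and 54.2 in *Kpna6*-/- testes. In both, the third *Kpna6* ΔIBB/ΔIBB testis was far above the rest and the second was close to the highest WT testis. *Col1a2* was 0.77 above WT on the log2 scale (SE 0.27, adjusted p = 0.0984) and *Col3a1* 0.67 (SE 0.33, adjusted p = 0.20). In 9 of 19 alternatives *Col1a2* did pass, among them DESeq2 (0.76, adjusted p = 0.0214) and limma on log2(TPM + 1) (0.76, adjusted p = 0.0189). *Col3a1* passed in 3 of 19, at 0.87 with limma on log2(TPM + 1) (adjusted p = 0.0355). Relative to the WT mean, *Col1a1* stood at 1.60, 0.987 and 2.72, *Col6a1* at 1.60, 1.15 and 1.94, *Col6a2* at 1.28, 1.05 and 2.32, *Col6a3* at 1.47, 0.936 and 1.86 and *Eln* at 1.46, 1.38 and 2.99 in the 3 *Kpna6* ΔIBB/ΔIBB testes. None of these passed with all testes in the edgeR fit used throughout. The third testis was the one with the high epididymal marker sum of 115.1 CPM, and the part of that tissue in these values was not tested.

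Without the third *Kpna6* ΔIBB/ΔIBB testis, 22 members rose and 11 fell. Of the 30 calls made with all testes, 29 were among these with the same direction, and *Lamb3* was not. *Eln* then rose by 0.51 (adjusted p = 0.00194), *Col1a2* by 0.49 (0.0329) and *Col6a1* by 0.47 (0.0409), and *Col5a1* fell by 0.24 (0.0163), while *Col3a1* was at 0.32 (0.186) and *Col1a1* at 0.37 (0.371). *Col1a2* also passed without the second *Kpna6* ΔIBB/ΔIBB testis, at 0.95 (adjusted p = 0.0442). *Col5a2*, a chain of the collagen that starts thin fibrils, had 3.00, 2.50 and 2.99 CPM in WT and 3.98, 2.77 and 6.07 in *Kpna6* ΔIBB/ΔIBB testes and did not pass (0.60, SE 0.25, adjusted p = 0.0853), but passed without the second *Kpna6* ΔIBB/ΔIBB testis (0.84, adjusted p = 0.00671). Without the third, in which it was highest, its value was 0.25 (adjusted p = 0.368).

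**Figure D5:**
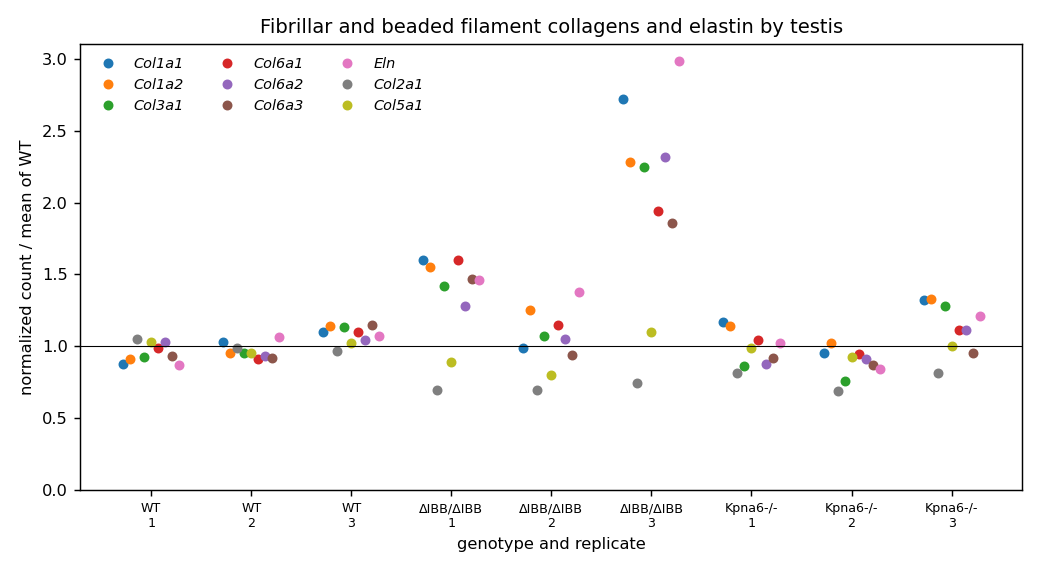
Normalized count of 9 members in each of the 9 testes, divided by the mean of the 3 WT testes. The chains of collagens I and III, *Col6a1*, *Col6a2*, *Col6a3* and *Eln* peak in the third *Kpna6* ΔIBB/ΔIBB testis, up to 2.99 for *Eln*, and are between 0.936 and 1.38 in the second. *Col2a1* is below 1 in all mutant testes.

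Among the other collagens and fibre glycoproteins, more genes fell than rose in the edgeR fit used throughout (8 and 3). This balance depended on the scaling and on the transcripts counted. Higher and lower calls numbered 6 and 6 under library size scaling, but 6 and 4 for TPM-derived counts. In limma they were 6 and 2 (pseudocount 1) or 7 and 3 (pseudocount 0.1). The longest coding transcripts alone gave 4 and 4. In every other alternative falls outnumbered rises, as in DESeq2 (8 and 5). *Col22a1* (chromosome 15, 71795795 to 72034227) had 260.3, 234.0 and 250.3 CPM in WT, 172.3, 163.5 and 191.3 in *Kpna6* ΔIBB/ΔIBB and 248.2, 233.8 and 251.7 in *Kpna6*-/- testes. The *Kpna6* ΔIBB/ΔIBB testes were below all others. It fell by 0.49 on the log2 scale (SE 0.06, adjusted p = 3.42e-05), and so did each of its 3 transcripts, from the short one of 659 nt (-0.54, adjusted p = 0.0138) to the whole mRNA of 8809 nt (-0.44, adjusted p = 0.015). *Col26a1*, whose level came mostly from a transcript of 280 nt and another of 578 nt, had 20.6, 18.8 and 19.6 CPM in WT, 17.5, 15.7 and 13.8 in *Kpna6* ΔIBB/ΔIBB and 18.8, 19.8 and 19.1 in *Kpna6*-/- testes. It fell by 0.33 (SE 0.09, adjusted p = 0.012) but did not pass with library size only (-0.23, adjusted p = 0.0663), with counts rebuilt from TPM (-0.25, 0.33), with limma on log2(TPM + 1) (-0.15, 0.567) or with the longest coding transcript (-0.91, 0.799). *Col20a1* had 59.6, 61.3 and 62.1 CPM in WT, 57.8, 53.7 and 55.4 in *Kpna6* ΔIBB/ΔIBB and 65.8, 63.2 and 60.4 in *Kpna6*-/- testes, and it did not pass (-0.13, SE 0.05, adjusted p = 0.0627).

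*Col28a1*, a collagen related to type VI, had 9.07, 9.39 and 8.88 CPM in WT, 6.20, 5.85 and 6.26 in *Kpna6* ΔIBB/ΔIBB and 6.63, 7.63 and 5.73 in *Kpna6*-/- testes. It fell by 0.57 (SE 0.10, adjusted p = 0.000615), with all mutant values below WT. It did not pass with counts rebuilt from TPM (-0.53, adjusted p = 0.0546) or with limma on log2(TPM + 1) (-0.31, 0.17) and log2(TPM + 0.1) (-0.39, 0.173). *Col6a4* had 26.3, 28.4 and 28.2 CPM in WT and 21.5, 19.0 and 23.0 in *Kpna6* ΔIBB/ΔIBB testes and fell by 0.38 (SE 0.08, adjusted p = 0.00157). *Col12a1*, which coats collagen fibrils, had 16.2, 17.8 and 19.0 CPM in WT, 12.6, 10.1 and 15.3 in *Kpna6* ΔIBB/ΔIBB and 14.4, 12.7 and 14.2 in *Kpna6*-/- testes. It fell by 0.47 (SE 0.13, adjusted p = 0.0152), and this was not called without WT replicate 2 (adjusted p = 0.0549), WT replicate 3 (0.0684) or *Kpna6* ΔIBB/ΔIBB replicate 1 (0.0598). *Col25a1* (-0.48), *Col9a3* (-0.52) and *Col14a1* (-0.26) also fell, and 5.35% of the 31-base words of *Col9a3* also occur in transcripts of *Tcfl5*.

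In this group, 3 members rose. *Fbln1*, a glycoprotein of basement membranes and elastic fibres, had 8.87, 7.51 and 9.5 CPM in WT, 17.2, 16.01 and 11.8 in *Kpna6* ΔIBB/ΔIBB and 11.2, 10.7 and 9.61 in *Kpna6*-/- testes. It rose 1.74-fold (log2 fold change 0.80, SE 0.14, adjusted p = 0.00079), and here the third *Kpna6* ΔIBB/ΔIBB testis was the lowest of its group. *Col6a6* had 2.02, 1.81 and 2.33 CPM in WT, 5.74, 4.84 and 2.99 in *Kpna6* ΔIBB/ΔIBB and 1.52, 1.75 and 1.81 in *Kpna6*-/- testes. It rose 2.20-fold (log2 fold change 1.14, SE 0.23, adjusted p = 0.00156), from a level below 1 TPM in every group, and 4.31% of its 31-base words also occur in other genes, *Col6a5* among them. *Fbln5*, which links elastin to cells, rose by 0.50 (adjusted p = 0.00639). *Fn1* did not pass (0.17, adjusted p = 0.089), nor did *Fbn1* and *Fbn2*, the fibrillins (0.00 and -0.15, adjusted p = 0.989 and 0.344). Of the 31-base words of *Fbn1*, 19.89% also occur in transcripts of other genes, the largest share among the members.

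At the level of transcripts, 147 member transcripts were tested in this comparison, of which 17 rose and 7 fell, where 3.99% and 5.79% of all 47577 transcripts tested did so. Of the 103 coding transcripts tested 17 rose and 6 fell, and of the 44 others 0 rose and 1 fell at an adjusted p of 0.05. Shares by type over all transcripts were not counted, so these counts do not set the coding transcripts apart.

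The second comparison set *Kpna6*-/- testes, from males that are fertile, against WT. Here 5 of 64 members rose and 4 fell, against 1.47% and 1.13% of 18681 genes tested. An unadjusted P-value below 0.05 in edgeR's quasi-likelihood test was found for 17 of these members and for 2775 of these genes. The rises were in *Lamb2* (log2 fold change 0.36, SE 0.06, adjusted p = 0.00263), *Col15a1* (0.35, SE 0.06, 0.00578), *Col27a1* (0.29, SE 0.06, 0.0118), *Col5a2* (0.72, SE 0.15, 0.0128) and *Lama3* (0.70, SE 0.16, 0.0258). *Col5a2* had 4.53, 4.45 and 5.06 CPM in these testes, all above the WT values. The falls were in *Col2a1* (-0.38, SE 0.06, 0.00288), *Col12a1* (-0.36, SE 0.09, 0.0309), *Agrn* (-0.34, SE 0.08, 0.0339) and *Col28a1* (-0.45, SE 0.12, 0.0431). All of these p-values are adjusted values of edgeR's quasi-likelihood test. *Col15a1*, *Col27a1* and *Agrn* lie on chromosome 4, at 82.3, 66.3 and 26.5 Mb from *Kpna6*.

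These calls were few, and with most of the testes left out in turn fewer were made, among members and over all genes. Without WT replicate 2 or 3 the number of members called was 3 and 5, and without *Kpna6*-/- replicate 1, 2 or 3 it was 3, 4 and 4, against 9 with all testes. Over all genes these fits called 259, 270, 150, 155 and 312, against 487. Without WT replicate 1, 11 members and 810 genes were called. Fewer testes also weaken the test, so these fits do not show that a call depended on a particular testis. No member was called with TPM-derived counts, where 13 of 64 members and 2168 of 18695 genes had an unadjusted p below 0.05. The same held for limma on log2(TPM + 1) (4 of 55 and 1972 of 16696) and the longest coding transcript (11 of 58 and 1756 of 15953). In edgeR's transcript fit 0 of 141 member transcripts passed and 18 had an unadjusted p below 0.05. The share over all transcripts was not counted. *Lamb2* and *Col2a1* were called with each testis left out in turn. *Col15a1* was not called without *Kpna6*-/- replicate 2, and *Agrn* and *Col12a1* were called only with all testes or without WT replicate 1. *Col27a1* and *Col5a2* were not called without WT replicate 2 or any of the *Kpna6*-/- testes (adjusted p = 0.0538 to 0.0656). *Lama3* was not called without WT replicate 2 or 3 or *Kpna6*-/- replicate 1 or 3 (0.0592 to 0.166), nor *Col28a1* without these same testes (0.0925 to 0.173). In these testes 3 of 12 Sertoli markers rose, with a median of 0.238, while the median of the basement membrane genes was -0.012.

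*Col15a1* and *Agrn* passed the test in *Kpna6*-/- testes and did not pass it in *Kpna6* ΔIBB/ΔIBB testes. *Col15a1*, a proteoglycan collagen of the zone outside basement membranes, had 25.8, 25.5 and 28.2 CPM in WT, 25.6, 22.7 and 27.6 in *Kpna6* ΔIBB/ΔIBB and 33.0, 35.5 and 32.9 in *Kpna6*-/- testes. The *Kpna6*-/- testes were above all others, while the other groups overlapped. *Agrn*, known for clustering receptors at the neuromuscular synapse, had 16.4, 15.1 and 16.1 CPM in WT, 17.8, 16.01 and 17.97 in *Kpna6* ΔIBB/ΔIBB and 12.5, 13.0 and 12.2 in *Kpna6*-/- testes. Its *Kpna6*-/- values were below all others. Against WT the *Kpna6* ΔIBB/ΔIBB values of these genes did not pass (*Col15a1* -0.06, SE 0.08, adjusted p = 0.584; *Agrn* 0.13, SE 0.08, adjusted p = 0.246), although *Agrn* did with library size only (0.22, adjusted p = 0.0456). *Col15a1* passed as lower with length-scaled TPM counts (-0.48, adjusted p = 0.00267) and with limma on log2(TPM + 1) (-0.35, 0.0202). In these fits its *Kpna6*-/- values against WT were 0.09 (0.744) and 0.08 (0.808) and did not pass.

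The third comparison set the mutant lines against each other. Of 64 members, 19 had a higher level and 6 a lower level in the *Kpna6* ΔIBB/ΔIBB line, against 13.8% and 17.0% of 18752 genes tested. The split was 24 and 3 with library size only and 19 and 2 in limma on log2(TPM + 1). Of these, 15 higher and 1 lower were basement membrane genes. *Lamb2* differed by 0.72 (SE 0.06, adjusted p = 1.54e-06), *Lamc3* by 0.67 (SE 0.06, adjusted p = 2.22e-07) and *Col6a6* by 1.40 (SE 0.22, adjusted p = 0.000234). *Agrn* was higher by 0.45 (SE 0.08, adjusted p = 0.000445), but did not pass with counts rebuilt from TPM (0.18, 0.351) or with limma (0.25, 0.148 and 0.32, 0.146 at the 2 pseudocounts). *Col15a1* was lower, with a log2 fold change of -0.42 (SE 0.07, adjusted p = 0.000273). No fibrillar collagen was called in this comparison by the edgeR fit used throughout or by DESeq2. In that edgeR fit 0 of the 11 had an unadjusted P-value below 0.05, where 7550 of the 18752 genes did. Without the third *Kpna6* ΔIBB/ΔIBB testis 2 were lower and without *Kpna6*-/- replicate 2 it was 1, while 1 was higher with library size only or counts rebuilt from TPM, and 2 with limma, the replicate block or no robust estimation. The *Col22a1* difference was -0.48 (SE 0.05, adjusted p = 3.81e-05).

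Genes that make, modify and bind collagens were counted from fixed lists. Of 30 tested genes of collagen synthesis and processing, 16 rose and 1 fell in *Kpna6* ΔIBB/ΔIBB testes, with a median of 0.344, where 17.9% of all genes rose and 19.1% fell. *Sparc*, a collagen-binding protein of basement membranes, rose by 0.87 (SE 0.05, adjusted p = 2.75e-07), *Colgalt1*, which adds galactose to collagen, by 0.64 (adjusted p = 2.49e-06), *P4ha1*, a prolyl 4-hydroxylase subunit, by 0.57 (adjusted p = 1.51e-05), and *P3h4*, a partner of the lysyl hydroxylases, by 1.05 (adjusted p = 3.66e-05). *Mia3*, which helps collagen leave the endoplasmic reticulum, fell by 0.15 (adjusted p = 0.0371), and *Serpinh1*, the collagen chaperone, did not pass (0.16, adjusted p = 0.439). Of 26 matrix receptors 13 rose and 3 fell. *Itga6* (0.69, adjusted p = 2.34e-05) and *Itgb1* (0.44, adjusted p = 3.94e-05), chains of a laminin receptor, rose, as did the collagen receptor *Ddr1* (1.39, adjusted p = 0.00677). *Itga1* and *Itga2*, which are among the chains of collagen-binding integrins, fell by 0.82 (adjusted p = 1.27e-06) and 1.04 (adjusted p = 0.00176). In *Kpna6*-/- testes 4 of 30 synthesis genes rose, and of the 26 receptors *Itga1* fell (-0.38, adjusted p = 0.00145), where 1.47% of all genes rose and 1.13% fell.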

How the data were processed

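RNA of 9 whole testes, 3 per genotype, was sequenced with a poly(A) library kit that does not mark strand, so overlapping and antisense genes cannot be told apart. The authors deposited, per library, kallisto's estimated counts and TPM for 96626 transcripts of mm10. The version was 0.45 per the submitters' processing notes, and the paper's methods name a later one. TPM values were scaled by the authors to a common total in each library. The deposited lengths and effective lengths were used for scaling only. For this report, 95301 transcripts were assigned to 32035 genes of GENCODE M21 (GRCm38) and summed. Expected counts were rounded, filtered (filterByExpr), TMM-normalized and tested pairwise with edgeR 4.0.16 (glmQLFit, robust) in R 4.3.3, with Benjamini-Hochberg adjustment over all genes tested. The sleuth test of the paper was not used here. SE is the absolute log2 fold change divided by the square root of F. The members, lists and rules were chosen with earlier results of these data known.

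Named members were the 3 with the highest WT TPM and the 4 with the smallest P-value in *Kpna6* ΔIBB/ΔIBB per class (at least 1 TPM in a group), those called in *Kpna6*-/-, those changed over 2-fold in *Kpna6* ΔIBB/ΔIBB and the type IV collagens, 27 in all. Further members were named after their values were seen. Of the members counted, 1 is not reported here by name. Alternatives were DESeq2 1.42.0 and its size factors, a filter keeping genes with 5 counts in at least 0.47 of the libraries, no filter, all 9 samples, library size only, length-scaled TPM counts, coding transcripts only, limma 3.58.1 on log2(TPM + 1) and log2(TPM + 0.1), a replicate block and each testis left out. Added after seeing the data were a fit that was not robust, the longest coding transcript and a fit of transcripts. P-values measure the spread between these testes. Neither labels nor paper say which testes share an animal. Simulated counts in the design of *Kpna6* ΔIBB/ΔIBB against WT were run through edgeR, DESeq2 and limma, the last on CPM instead of TPM. The other fits and the permutation test were not checked in this way. Shared sequence was counted in words of 31 bases. Promoter windows (RefSeq, GRCm38.p6) were matched by symbol for 47 members. Among those not matched were *Col12a1*, *Col14a1*, *Col1a1*, *Col22a1*, *Col26a1*, *Col2a1*, *Col4a3*, *Col5a2*, *Col9a3*, *Eln*, *Fbn2*, *Fn1*, *Lama1*, *Lama3*, *Lama4*, *Lamc1*, *Lamc3* and *Nid2*. Tables were handled with pandas and numpy in Python 3.11.15.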

Additional observations from a re-analysis of the deposited data

Results flagged for a closer look

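*Agrn* and *Col15a1* were the members that passed the test in *Kpna6*-/- testes, had the opposite sign in *Kpna6* ΔIBB/ΔIBB testes and differed between the mutant lines. The direct comparison of *Kpna6* ΔIBB/ΔIBB with *Kpna6*-/- testes gave a log2 fold change of 0.4542 for *Agrn* (adjusted p = 0.000445) and -0.4232 for *Col15a1* (adjusted p = 0.000273, edgeR quasi-likelihood test). The difference in *Agrn* was not called with length-scaled TPM counts (0.18, adjusted p = 0.351) or with limma on TPM (0.25 and 0.32, adjusted p = 0.148 and 0.146). In *Kpna6*-/- against WT testes the values were -0.34 for *Agrn* and 0.35 for *Col15a1*. *Agrn* did not pass there with each of 5 of the 6 testes left out (adjusted p = 0.052 to 0.141), which were WT replicates 2 and 3 and *Kpna6*-/- replicates 1, 2 and 3. *Col15a1* did not pass without *Kpna6*-/- replicate 2 (adjusted p = 0.0633), with length-scaled TPM counts (0.09, 0.744) or with limma on log2(TPM + 1) (0.08, 0.808). The level of *Col15a1* was spread over transcripts, the most abundant of which held 28.8% in WT. Its longest coding transcript had 1.96 TPM in WT, 3.68 TPM with the ΔIBB allele and 2.71 TPM in *Kpna6*-/- testes, and on that transcript the difference between the mutant lines was 0.30 (adjusted p = 0.413).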

How the results depend on the processing

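Against WT, the number of members called in *Kpna6* ΔIBB/ΔIBB testes was 30 and lay between 20 and 35 over the alternatives, and between 26 and 34 with each testis left out. Between the mutant lines it was 25, between 17 and 34, and between 21 and 30 with each testis left out. In *Kpna6*-/- against WT testes it was 9, and it was 0 with length-scaled TPM counts, limma on log2(TPM + 1) or log2(TPM + 0.1) and the longest coding transcript, and between 3 and 11 with each testis left out. The cause was not tested. The replicate numbers did not pair the testes (correlations of same-numbered deviations between -0.056 and 0.078). With the number as a block 35, 7 and 34 members were called in the 3 comparisons.

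Over all genes, 6967 were called in *Kpna6* ΔIBB/ΔIBB against WT and 3906 with the longest coding transcript. The share of higher genes among the calls was 48.3%, 70.0% with library size only and 71.0% with limma on log2(TPM + 1), which moved the median of all genes to 0.107 and 0.106. In *Kpna6*-/- against WT 487 genes were called, 930 without a filter, 299 without robust estimation, 91 with length-scaled TPM counts, 30 and 25 with limma at the 2 pseudocounts and 60 with the longest coding transcript. Between the mutant lines 5784 were called, and 3012 with the longest coding transcript. The share that was higher was 44.8% there, 71.2% with library size only and 74.2% with limma on log2(TPM + 1).

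Of 973 values of named members under an alternative, 805 had the same direction and side of the threshold, 136 lost and 21 gained a call, and 11 changed sign. *Col15a1* in *Kpna6* ΔIBB/ΔIBB against WT was 0.0371 with library size only, 0.7711 with the longest coding transcript and between -0.1297 and 0.0146 with each testis left out, and passed at -0.48 with length-scaled TPM counts (adjusted p = 0.00267). Its difference between the mutant lines was 0.2970 with the longest coding transcript. *Col4a6* against WT was 0.0823 with library size only, 0.0980 with coding transcripts, 0.0087 and 0.0108 with limma at pseudocounts of 1 and 0.1, 0.0921 with the longest coding transcript and between -0.1104 and 0.0738 with each testis left out. *Col4a3* lay between -0.0008 and 0.3755 with each testis left out. With 3 testes per group, low members such as *Lama3* and *Col5a2* rest on few counts, and a member that did not pass is not shown to be equal. The values of *Col1a1*, *Col1a2*, *Col3a1*, *Col6a1*, *Col6a2* and *Col6a3* were lower without *Kpna6* ΔIBB/ΔIBB replicate 3.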

Other observations

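Enzymes that cut matrix and their inhibitors were not part of the report. Of 17 tested, 10 rose and 1 fell in *Kpna6* ΔIBB/ΔIBB against WT testes, with a median log2 fold change of 0.524, where 17.9% of all genes rose and 19.1% fell. *Timp1*, a secreted inhibitor of matrix metalloproteinases, rose from a mean of 0.750 to 4.54 CPM (log2 fold change 2.58, SE 0.47, adjusted p = 0.00497, edgeR quasi-likelihood test). *Timp2* (0.52, adjusted p = 0.00203) and *Timp3* (0.51, adjusted p = 0.000612), inhibitors with higher levels, rose as well, while *Timp4* fell by 0.97 (adjusted p = 0.000438). *Mmp14*, a membrane-bound collagenase, rose by 0.46 (adjusted p = 8.41e-05) and also in *Kpna6*-/- testes, by 0.30 (adjusted p = 0.0224). *Htra1*, a secreted serine protease, rose by 0.90 (adjusted p = 4.52e-06). *Mmp2*, a gelatinase, had a value of 0.62 and did not pass (adjusted p = 0.11).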
